A study of Mus musculus with 8 samples.

Results

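Of the 46517 genes counted in 3491 single cells of the mouse liver, 10 apolipoprotein genes are described here: *Apoa1*, *Apoa2*, *Apoa4*, *Apoa5*, *Apob*, *Apoc1*, *Apoc3*, *Apoe*, *Apoh* and *Apom*. They were taken by name, and all 10 were found in the count table and passed the filter on low counts. The level of each gene outside hepatocytes was set beside its level in hepatocytes, and that ratio was set beside the same ratio for *Alb*, the gene of serum albumin, which hepatocytes secrete in large amounts. *Apoe* was the exception among the 10: its RNA was found in nearly every cell of every class, at 63.3% to 165% of its level in hepatocytes, while *Alb* outside the parenchymal class stood at 1.74% to 5.36%. In cholangiocytes, the other cells of the parenchymal class, *Alb* stood at 52.0% and 59.7% in the male and female pools. There the ratio of *Apoe* was only 1.85 and 2.76 times that of *Alb*. *Apoc1* was next, with 59.5% and 54.0% of the hepatocyte level in the male and female immune cells. The other 8 genes had a median of 0.626% to 2.71% of their hepatocyte levels in the pools of endothelial, immune and mesenchymal cells. In male and female cholangiocytes their medians were 2.295% and 2.282%, with *Apob* highest at 16.7% and 6.43%.

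Livers of male and female adult mice (C57BL6) were taken apart, and single cells were sorted into plates and sequenced by Smart-seq2, which copies whole transcripts from single cells. Some mice carried the reporters Pdgfrb-GFP, Pdgfra-H2bGFP, Acta2-GFP, Cspg4-dsRED or Cldn5-GFP, each of which marks the cells in which the named promoter is active. Mesenchymal cells were gated by such reporters, endothelial cells by CD31, VE-cadherin or Cldn5-GFP, Kupffer cells by CD68 and cholangiocytes by EPCAM, while hepatocytes were taken as living cells without a marker. The series lists 8 samples, a male and a female pool of the endothelial, immune, mesenchymal and parenchymal class, and no label ties a cell to its mouse. The parenchymal class was divided by the clusters of the authors into cholangiocytes (#p2, 194 cells) and hepatocytes (#p1, #p3, #p4 and #p5, 203 cells).

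For each group and pool, the counts of its cells were added up and are given as CPM, the counts of a gene relative to all counts of the sum. The female pool held 2 hepatocytes, with 158044 counts, so the CPM given for the hepatocyte group are those of 201 male cells with 35858689 counts. Percents of the hepatocyte level, apart from those within a plate, are relative to the sum of both pools, the 2 female cells included. A tested difference between hepatocytes and another group has a single sum, the male one, on the hepatocyte side. The other sums ranged from 6241506 counts in 37 female cholangiocytes to 218419420 counts in 998 male mesenchymal cells. Pools of a group differ in sex and in plates as well as in mice, and the female mesenchymal pool came from 1 plate. The p values therefore measure the spread between pools, and against hepatocytes that spread comes from the other 4 groups alone, since the single hepatocyte sum has none and is taken to vary like them. The defining markers matched the groups: the 15 secreted protein genes and 15 enzyme genes listed for hepatocytes were all at 192 CPM or more in male hepatocytes, the 5 cholangiocyte markers at 410 CPM or more in #p2, the 5 endothelial markers at 411 CPM or more in endothelial cells, and the 7 Kupffer cell markers at 333 CPM or more in immune cells. CPM are shares of all counts of a sum, so a smaller share of a transcript and less of it per cell cannot be told apart.

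Apolipoproteins are the protein parts of lipoproteins, the particles that carry triglycerides and cholesterol in blood. Apolipoprotein B is the scaffold of very low density lipoproteins made by the liver, and apolipoproteins A-I and A-II are the main proteins of high density lipoproteins. The smaller C proteins and apolipoprotein A-V tune lipolysis in plasma. Apolipoprotein E is the ligand by which remnant particles are taken up through receptors of the LDL receptor family. Hepatocytes are the main source of most of them, and macrophages are known to make apolipoprotein E as well.

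On GRCm38, *Apoe* lies at chr7:19696109-19699188 and *Apoc1* at chr7:19689481-19692660, both on the minus strand and 3449 bases apart. A stretch of chromosome 9 holds 4 further members: *Apoa1* at chr9:46228580-46230466, *Apoc3* at chr9:46232933-46235636, *Apoa4* at chr9:46240696-46243459 and *Apoa5* at chr9:46268633-46271919. *Apoa2* lies at chr1:171225054-171226379, *Apob* at chr12:7977648-8016835, *Apoh* at chr11:108343354-108414396 and *Apom* at chr17:35128997-35132050. *Apoa4*, *Apoa5* and *Apoh* overlap other genes on the opposite strand (*Apoh* the gene *Prkca*), and Smart-seq2 does not mark the strand, so reads of such partners cannot be told apart there.

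The bases just upstream of the annotated starts are shown for 3 genes with different distributions over the cell groups, *Apoe* in all groups, *Apoa1* mostly in hepatocytes and *Alb* as the gene it is set beside. They are from RefSeq (GRCm38.p6), read 5′ to 3′ on the strand of the gene, and end at the base before the first annotated start. The *Apoe* window is chr7:19699189-19699438 on the minus strand, the *Apoa1* window chr9:46228380-46228579 on the plus strand and the *Alb* window chr5:90460620-90460869 on the plus strand. Capitals mark matches to the motifs that were searched on both strands.
Apoe: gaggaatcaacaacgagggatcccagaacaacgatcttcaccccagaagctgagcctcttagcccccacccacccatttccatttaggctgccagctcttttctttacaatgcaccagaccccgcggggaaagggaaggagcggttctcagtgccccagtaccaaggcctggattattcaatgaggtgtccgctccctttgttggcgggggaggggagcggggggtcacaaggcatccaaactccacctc
Apoa1: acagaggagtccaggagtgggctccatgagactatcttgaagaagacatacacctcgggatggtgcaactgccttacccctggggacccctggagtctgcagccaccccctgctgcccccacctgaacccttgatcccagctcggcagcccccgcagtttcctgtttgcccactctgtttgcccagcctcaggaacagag
Alb: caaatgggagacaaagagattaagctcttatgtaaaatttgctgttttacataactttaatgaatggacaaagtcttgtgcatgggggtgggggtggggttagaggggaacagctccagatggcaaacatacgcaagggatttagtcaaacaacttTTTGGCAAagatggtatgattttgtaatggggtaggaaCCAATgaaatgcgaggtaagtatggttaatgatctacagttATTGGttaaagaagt

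The motifs were the TATA box (TATAAA), the GC box (GGGCGG), the CCAAT box, TTGCNNAA (bound by C/EBP factors) and CAAAGTCCA (bound by HNF4). The RefSeq start of *Alb* used here lies upstream of its GENCODE start (chr5:90460897), and distances are from the former. The *Alb* window held CCAAT on the plus strand 56 bases and on the minus strand 15 bases before the start, and TTGCNNAA on the minus strand 94 bases before it. None of the 5 motifs was in the *Apoe* or *Apoa1* window in these letters. Over 32851 promoter windows of 250 bases, 12.4% held the TATA box, 32.7% the GC box, 33.8% the CCAAT box, 9.56% TTGCNNAA and 0.384% CAAAGTCCA. Over windows of 200 bases, the length shown for *Apoa1*, the shares were 9.14%, 24.6%, 28.4%, 8.11% and 0.295%. The GC content was 57.2% for *Apoe* with 8 CpG sites, 60.5% for *Apoa1* with 3 and 39.2% for *Alb* with 2.

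In hepatocytes, levels of different genes were compared per length, as CPM per kilobase of exon. *Alb* was at 2898, *Apoa2* at 2292, *Apoa1* at 1707, *Apoe* at 1576 and *Apoc1* at 1203 CPM per kilobase. *Apoc3*, which inhibits lipolysis, was at 637 and *Apoh*, which binds phospholipids, at 460. *Apoa4* was at 183, *Apoa5* at 166, *Apom*, the carrier of sphingosine 1-phosphate, at 127 and *Apob* at 12. The long *Apob* transcript was thus the lowest of the 10 on this scale.

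**Figure D1:**
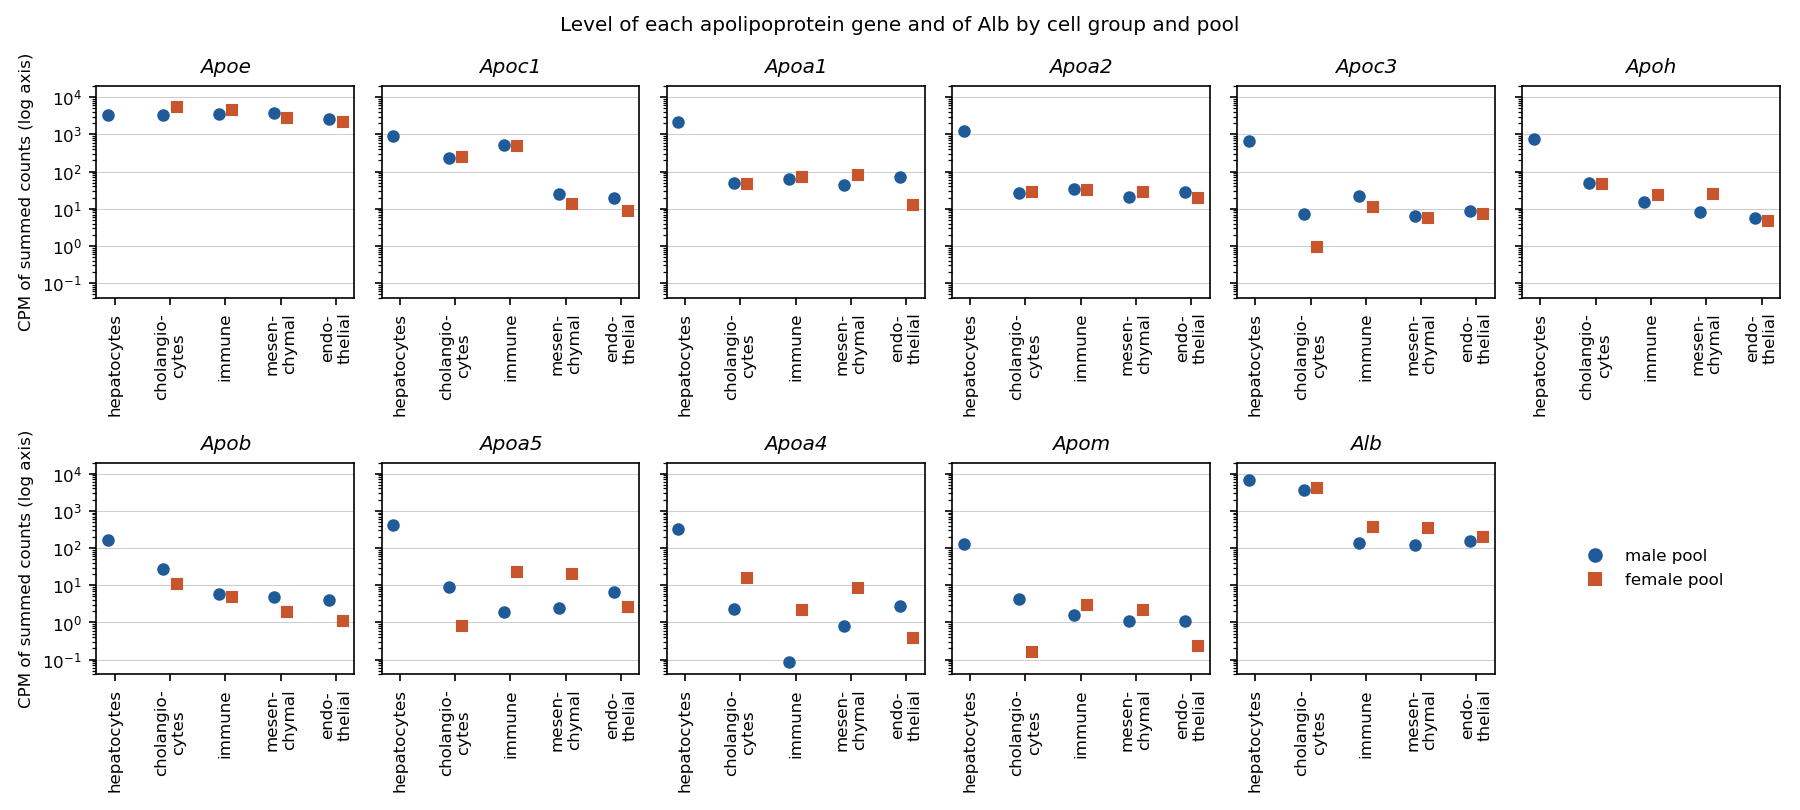
Level of each apolipoprotein gene and of *Alb* as CPM of summed counts (log axis) in 5 cell groups, with circles for the male and squares for the female pool; hepatocytes have a male sum only, and values under 0.05 CPM are drawn at 0.05. *Apoe* stays between 2129 and 5544 CPM in the 9 sums, *Apoc1* is high in hepatocytes, cholangiocytes and immune cells, and the other members are far above the rest in hepatocytes.

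*Apoe*, the receptor ligand, was at 3370 CPM in male hepatocytes. Male and female cholangiocytes had 3238 and 5544 CPM. Their depth differed, with medians of 341237 and 88932 counts per cell, against 166805 in male hepatocytes, and the part of depth was not tested. Levels of *Apoe* were 3645 and 4653 CPM in immune cells, 3712 and 2695 CPM in mesenchymal cells and 2566 and 2129 CPM in endothelial cells. The hepatocyte value lay within the range of the other 8 sums, and neither sex was higher in all 4 groups. Against hepatocytes, the log2 fold change of *Apoe* was −0.52 ± 0.39 (SE) in cholangiocytes, −0.41 ± 0.39 in immune cells, −0.68 ± 0.39 in mesenchymal cells and −1.28 ± 0.38 in endothelial cells, with adjusted p = 0.50, 0.56, 0.31 and 0.065 (edgeR quasi-likelihood test, 9 sums). None of these passed the threshold of an adjusted p under 0.05 with a log2 fold change of at least 1, although 4 of 17 alternative fits called *Apoe* lower in endothelial cells (−1.61 with the size factors of DESeq2 in edgeR and with DESeq2, −1.25 with no filter on low counts and −1.28 with the newer dispersion of edgeR, adjusted p = 0.042, 0.048, 0.025 and 0.045). Direction depended on scaling, since CPM of both immune pools, female cholangiocytes and male mesenchymal cells were above hepatocytes while the TMM-scaled fit put these groups below. With sums per plate the estimates were 0.26 in immune and 0.09 in mesenchymal cells, also not called. *Apoe* was not called either in a group against the mean of the other 3 groups outside hepatocytes, with log2 fold changes from −0.74 to 0.42 (adjusted p from 0.17 in endothelial cells upward in edgeR).

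Beside *Alb*, the spread of *Apoe* was plain. In male and female pools, *Apoe* reached 76.2% and 63.3% of its hepatocyte CPM in endothelial cells, where *Alb* reached 2.26% and 2.86%. In immune cells *Apoe* reached 108% and 138% and *Alb* 1.97% and 5.36%. In mesenchymal cells *Apoe* reached 110% and 80.1% and *Alb* 1.74% and 5.21%. The ratio of *Apoe* was therefore 15.4 to 63.6 times that of *Alb* in these 6 pools. In cholangiocytes *Alb* itself was high, at 3545 and 4070 CPM or 52.0% and 59.7% of hepatocytes, and the ratio of *Apoe*, 96.2% and 165%, was 1.85 and 2.76 times that of *Alb*.

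The same question was put to a fit in which each sum was scaled by its counts of 30 hepatocyte genes (15 of secreted proteins and 15 of enzymes), so that a gene present outside hepatocytes in the same proportion to these genes as within them has a log2 fold change of 0. By construction most genes of other cell types pass on this scale: 32% of 27328 genes were called higher in cholangiocytes, 68.7% in endothelial, 66% in immune and 65% in mesenchymal cells. Against this background, 1 of 10 apolipoprotein genes was called in cholangiocytes, 1 in endothelial, 2 in immune and 1 in mesenchymal cells. *Apoe* was the one called in each group, with log2 fold changes of 2.88 ± 0.55 (SE) in cholangiocytes, 6.19 ± 0.66 in endothelial, 6.52 ± 0.67 in immune and 5.49 ± 0.64 in mesenchymal cells and adjusted p of 0.0059, 1.3e-04, 1.7e-04 and 3.0e-04 (edgeR). The second in immune cells was *Apoc1*, at 5.45 ± 0.87 (adjusted p = 6.5e-04, edgeR). *Alb*, which is 1 of the 30 genes, was at 0.73 to 1.66 in the 4 groups. The call for *Apoe* in cholangiocytes was lost when *Alb* alone or the 15 secreted protein genes were the scale.

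The other 8 genes were not called above the hepatocyte genes in this fit. Their log2 fold changes on that scale ran from −2.18 (*Apoa4*) to 1.30 (*Apob*), both in immune cells, over the endothelial, immune and mesenchymal groups, with SE of 0.69 to 1.98. In cholangiocytes *Apoa1* (−2.94), *Apoa2* (−2.97) and *Apoc3* (−4.77) were called lower on this scale, where 0.757% of all genes were, and no member was in the endothelial, immune and mesenchymal groups, where 0.161%, 0.234% and 0.267% were.

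**Figure D2:**
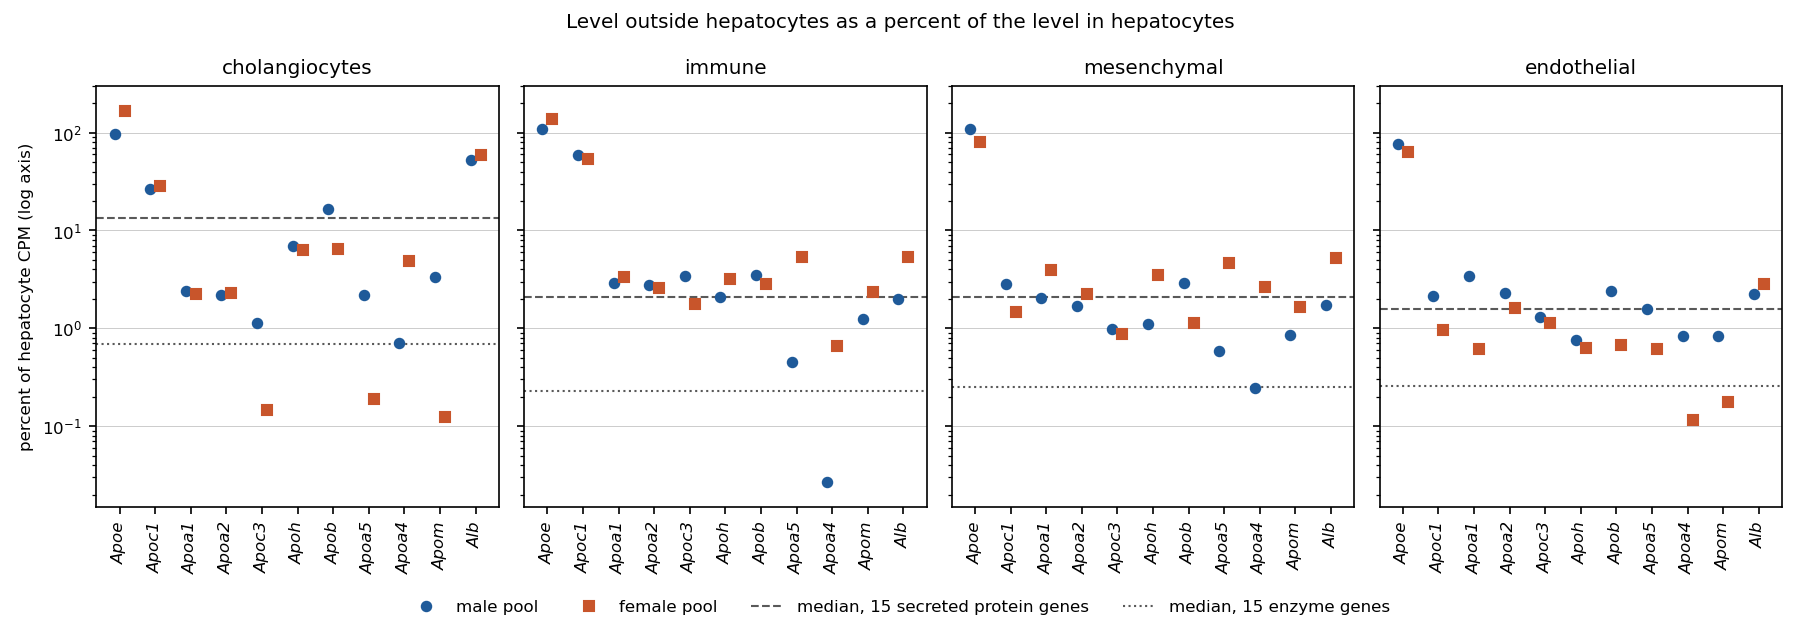
Level of each apolipoprotein gene and of *Alb* in cells other than hepatocytes, as a percent of its CPM in hepatocytes (log axis), in 4 panels by cell group, with circles for male and squares for female pools; dashed and dotted lines give the medians of 15 secreted protein genes and 15 enzyme genes over both pools. *Apoe* lies at 63.3% or more in each pool, and *Apoc1* lies near it in immune cells alone.

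*Apoc1*, a small exchangeable apolipoprotein that inhibits lipases and lipid transfer, was at 895 CPM in male hepatocytes. It was at 534 and 484 CPM in male and female immune cells and at 236 and 253 CPM in cholangiocytes. In mesenchymal cells it was at 25.3 and 13.1 CPM and in endothelial cells at 19.3 and 8.66 CPM. The 5 groups thus fell into an order, hepatocytes, immune cells, cholangiocytes, and then mesenchymal and endothelial cells, whose pools overlapped. Against the mean of the other 3 groups outside hepatocytes, *Apoc1* was higher in immune cells by 3.69 ± 0.37 (SE) on the log2 scale and in cholangiocytes by 2.05 ± 0.38 (adjusted p = 7.8e-04 and 0.010, edgeR). It was lower in endothelial cells (−3.29 ± 0.51) and mesenchymal cells (−2.45 ± 0.48). The calls in cholangiocytes, endothelial and mesenchymal cells were lost without single pools, as given below. Against hepatocytes the immune value was −1.52 ± 0.59, with adjusted p = 0.14, and did not pass the test.

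As percent of hepatocytes, *Apoc1* stood at 59.5% and 54.0% in immune cells, 30.2 and 10.1 times the ratio of *Alb* in the same pools. In cholangiocytes it stood at 26.3% and 28.3%, under the ratio of *Alb*. In endothelial cells, 2.15% and 0.966%, it was also under the ratio of *Alb*, and in mesenchymal cells, 2.83% and 1.46%, it was above it in the male pool and under it in the female pool.

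RNA of Kupffer cell markers was also counted in the other groups. The 7 markers *Clec4f*, *Vsig4*, *Folr2*, *Timd4*, *Cd5l*, *C1qa* and *Csf1r* were above 0 in every pool, and their summed level was 2.42% and 3.86% of that in the immune pool of the same sex in cholangiocytes, 0.952% and 1.10% in endothelial cells and 0.217% and 0.490% in mesenchymal cells. *Apoc1* stood at 44.2% and 52.4% of the immune level in cholangiocytes, 3.61% and 1.79% in endothelial cells and 4.75% and 2.70% in mesenchymal cells. *Apoe* stood at 88.8% and 119%, 70.4% and 45.8%, and 102% and 57.9%. Both genes were thus a larger percent of the immune level than the summed markers in each of the 6 pools. The part of Kupffer cell RNA in the low *Apoc1* levels was not tested.

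*Apoa1* and *Apoa2*, the high density lipoprotein genes, were at 2109 and 1231 CPM in male hepatocytes. *Apoa1* was at 50.2 and 47.4 CPM in male and female cholangiocytes, 71.5 and 13.0 CPM in endothelial, 62.0 and 70.5 CPM in immune and 43.3 and 82.9 CPM in mesenchymal cells. *Apoa2* was at 27.2 and 28.5 CPM in cholangiocytes, 34.1 and 31.8 CPM in immune and 20.98 and 27.8 CPM in mesenchymal cells, and at 28.4 CPM in male endothelial cells. Female endothelial cells had the lowest level of *Apoa2*, 1.62% of that in hepatocytes. Both were far below hepatocytes in each pool, and *Apoa2* in particular varied little between the 8 pools, at 1.62% to 2.77% of hepatocytes against 0.617% to 3.93% for *Apoa1*. Between plates with at least 10 cells of a group, *Apoa2* was less even. It ran from 8.36 to 58.7 CPM in endothelial, 0 to 50.04 CPM in immune and 10.7 to 43.75 CPM in mesenchymal cells.

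*Apoc3* was at 646 CPM in male hepatocytes and at 0.961 to 22.1 CPM in the other 8 sums. *Apoh* was at 733 CPM in hepatocytes, at 50.7 and 46.5 CPM in cholangiocytes and at 4.61 to 25.6 CPM in the 6 other sums. *Apob*, the scaffold gene, was at 168 CPM in hepatocytes, at 28.0 and 10.7 CPM in cholangiocytes and at 1.12 to 5.88 CPM elsewhere. For both *Apoh* and *Apob*, cholangiocytes were the highest group outside hepatocytes in each sex. *Apoh* was called higher there than in the other 3 groups (1.87 ± 0.40 on the log2 scale, adjusted p = 0.020, edgeR), while *Apob*, at 2.27 ± 0.62, missed the threshold (adjusted p = 0.051). The call of *Apoh* was lost without single pools, as given below.

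*Apoa5*, *Apoa4* and *Apom* were found in the smallest shares of endothelial, immune and mesenchymal cells and cholangiocytes. *Apoa5*, which promotes lipolysis, was at 419 CPM in male hepatocytes and from 0.801 CPM in female cholangiocytes to 22.2 CPM in female immune cells. *Apoa4*, which is abundant in the intestine, was at 332 CPM and from 0.0882 CPM in male immune cells, 6 counts, to 16.2 CPM in female cholangiocytes. *Apom* was at 129 CPM and from 0.160 to 4.32 CPM, both in cholangiocytes. Pools of the same group differed by over 10-fold for several of these values, and the sexes had no common direction.

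Tested against hepatocytes, 6 of the 10 genes were lower in cholangiocytes, 9 in endothelial cells, 7 in immune cells and 7 in mesenchymal cells, where 3.3%, 6.25%, 5.99% and 4.35% of the 27328 genes tested were called lower. None of the 10 was called higher, where 3.63%, 5.88%, 4.9% and 5.54% of all genes were. *Apoa1*, *Apoa2*, *Apoc3*, *Apoh* and *Apom* were called lower in each group. Without the female parenchymal pool 3 were lower in cholangiocytes, with *Apoa1* (adjusted p = 0.0503), *Apoc1* (0.104) and *Apom* (0.0665) no longer called, and with plate as a term 3, with *Apoc1*, *Apoh* and *Apom* no longer called. In immune cells 4 were lower without the male immune pool, with *Apoa4* (adjusted p = 0.0914), *Apob* (0.0516) and *Apom* (0.108) no longer called, and 4 in sums of at least 2 cells, with *Apoa4*, *Apoh* and *Apom* no longer called. *Apoa1* had log2 fold changes of −6.31, −6.41, −5.70 and −5.71 in cholangiocytes, endothelial, immune and mesenchymal cells (SE 0.85 to 0.88), and *Apoa2* of −6.35, −6.43, −5.93 and −6.29 (SE 0.47 to 0.48). *Alb* was at −6.03, −5.47 and −5.51 in endothelial, immune and mesenchymal cells but was not called in cholangiocytes (−1.72 ± 0.64, adjusted p = 0.15, edgeR). The median log2 fold change of all genes was 0, 0.99, 0.80 and 1.29 in the 4 groups, so the fall of the members relative to the median gene was larger than the value printed outside cholangiocytes.

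The ratio of a member exceeded that of *Alb* in 21 of 80 pairs of a gene and a pool. *Apoe* did so in 8 of 8 pools, *Apoc1*, *Apoa1* and *Apob* in 3, *Apoa2* in 2, *Apoc3* and *Apoh* in 1, and *Apoa4*, *Apoa5* and *Apom* in 0. The choice of the reference gene mattered: against the median ratio of the 30 hepatocyte genes, 65 of 80 pairs were above. *Alb* itself had a high ratio, with 0 to 9 of the 30 genes above it in a pool. The 15 secreted protein genes had a median ratio of 0.811% to 2.53% in the 6 pools of endothelial, immune and mesenchymal cells, and the 15 enzyme genes of 0.202% to 0.282%, lower by 3.68 to 12 times in the same pool. The 8 members other than *Apoe* and *Apoc1*, with medians of 0.626% to 2.71% in the same 6 pools, were closer to the secreted protein genes than to the enzyme genes. Single genes of the lists departed from the rest, such as *Itih3* at 13.2% and 26.5% and *Cyp2e1* at 32.1% and 11.7% in mesenchymal cells. Without these 2 genes in the scale, the calls for *Apoe* and *Apoc1* did not change.

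Cholangiocytes held more RNA of secreted proteins of hepatocytes than the other groups. The median ratio was 12.1% and 7.98% for the secreted protein genes in male and female #p2 and 0.676% and 0.550% for the enzyme genes. *Alb* was called higher than in the other 3 groups, by 3.95 ± 0.40 on the log2 scale (adjusted p = 6.2e-04, edgeR), and *Ambp*, the gene of alpha-1-microglobulin, was at 217% and 254% of hepatocytes. *Apoa1* and *Apoa2*, at 2.21% to 2.38% of hepatocytes, did not follow, and lay within the range of the other groups. Of 10 members, 2 were called higher in cholangiocytes than in the other 3 groups (*Apoc1* and *Apoh*), 1 in immune cells (*Apoc1*), and 0 in endothelial and mesenchymal cells. Of all genes 6.7%, 6.77%, 4.55% and 8.43% in these groups were called higher in these comparisons. In the other direction, *Apoc1* and *Apoh* were called in endothelial cells, where 2.41% of all genes were, and *Apoc1* in mesenchymal cells, where 1.65% were. No member was called lower in cholangiocytes or immune cells, where 3.84% and 4.72% were. The endothelial and mesenchymal counts of members higher there were 0 in edgeR, at an unadjusted p under 0.05 too, and 0 in the Wald test of DESeq2. The cholangiocyte calls were lost without the female parenchymal pool, at 2.07 for *Apoc1* (adjusted p = 0.051, edgeR) and 1.99 for *Apoh* (0.063). That of *Apoh* was also lost without the male parenchymal pool (1.82, adjusted p = 0.14, edgeR) or the female endothelial pool (1.83, 0.053). Those lower in endothelial cells were lost without the female endothelial pool (−2.84 and 0.065 for *Apoc1*, −2.19 and 0.21 for *Apoh*), and for *Apoh* also without the male endothelial pool (−2.43, 0.17) or the male parenchymal pool (−2.32, 0.089). The mesenchymal call of *Apoc1* was lost without the female mesenchymal pool (−1.99, 0.11).

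The authors divided the classes into 30 clusters, 4 of hepatocytes and 26 of other cells. Since the clusters were made on the same transcriptomes, differences between them are partly built in. *Apoe* ranged over 11.4-fold among the 26, from 599 CPM in the lymphatic endothelial cells #e4 and 609 CPM in the B cells #i5 to 6828 CPM in the Kupffer cells #i6, with a median of 3337 CPM. In 18 of the 26 it was above the lowest hepatocyte cluster, #p5, at 2540 CPM. The 4 hepatocyte clusters reached 6707 CPM in #p3, of 23 cells. The 8 clusters below #p5 were 4 of the 8 endothelial, 3 of the 10 mesenchymal and 1 of the 7 immune clusters.

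Among immune cells, *Apoe* was at 6308 CPM in #i1, 6474 CPM in #i3 and 6828 CPM in #i6, all Kupffer cells, at 3695 CPM in the Kupffer cells #i7, at 4523 CPM in #i4, which holds cycling cells and cells annotated Cont, and at 2565 CPM in the monocytic cells #i2. *Apoc1* followed a steeper order, with 1141 CPM in #i1, 702 in #i3, 538 in #i6, 445 in #i7, 333 in #i4, 158 in #i2 and 34.9 in #i5. In the finer community clusters, the dendritic cells #i7c had 228 CPM of *Apoe* and 7.74 CPM of *Apoc1*, the lowest of both among immune cells. The study divided #i2 further, and describes a part of it, #i4c, as a subpopulation of Kupffer cells. The 18 cells of #i4c were at 3801 CPM of *Apoe* and 666 CPM of *Apoc1*. The 57 cells annotated Monocytes were at 2320 and 31.1 CPM. The level of *Apoc1* in #i2 is thus not that of monocytic cells alone. The Kupffer clusters (#i1, #i3, #i4, #i6 and #i7) were above #i2 and #i5 by 2.22 on the log2 scale for *Apoe* and by 3.11 for *Apoc1* (edgeR, 10 sums). Cluster #i2, on the other side of this comparison, is mixed in this way. #i2 and #i5 each entered with a male sum only, of the same pool, so no spread between pools was measured on their side. The fit had 3 residual degrees of freedom and took the quasi-likelihood dispersion from the trend over all genes (infinite prior degrees of freedom). Its p values are therefore not given, although it called both genes, where 0.995% of 20110 genes were called higher. The Wald test of DESeq2 gave 2.30 for *Apoe* with an adjusted p of 0.18, and the cause of this difference was not tested. Depth differed among these clusters, with median counts per cell of 136175 in #i3, 142422 in #i6, 210355 in #i1, 230096 in #i4 and 450234.5 in #i7, the Kupffer cluster lowest in *Apoe*. The part of depth in the order was not tested.

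Mesenchymal clusters also differed in *Apoe*. Arterial smooth muscle cells (#m2) were lowest, with 726 and 1199 CPM in the male and female pools, and the portal fibroblasts #m8 highest, with 6684 CPM. Cells of #m8 were also the shallowest, with a median of 114907 counts per cell against 197731 to 351886 in the other 9 clusters, and the part of depth was not tested. Portal fibroblasts #m10 and #m1 were at 4348 and 3701 CPM, peribiliary fibroblasts (#m4) at 3206 CPM and the *Wt1*-positive fibroblasts #m9 at 2350 CPM. Cluster #m3, which holds hepatic stellate cells and is annotated for the most part as cHSC, those of the liver capsule, was at 4060 and 3967 CPM in the male and female pools. By annotation, the 113 cHSC were at 3721 and 3947 CPM and the 73 HSC, the vitamin A storing cells of the sinusoid, at 4533 and 4066 CPM, the latter in 4 female cells. Cluster #m3 differed from the mean of the other mesenchymal clusters by 0.28 ± 0.16 on the log2 scale, which was not called (adjusted p = 0.57, edgeR, 18 sums), where 2.19% of all genes were called higher. *Apoc1* was low in each mesenchymal cluster, from 2.57 CPM in #m9 to 55.5 CPM in #m3. By annotation, it was at 93.3 CPM in HSC and 32.4 CPM in cHSC, each over both pools.

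Endothelial clusters fell from 3614 CPM of *Apoe* in #e8 and 3611 CPM in #e5, both sinusoidal, to 2729 CPM in the sinusoidal cluster #e3, 2582 CPM in the portal vein cluster #e2, 1792 and 1679 CPM in the central vein clusters #e7 and #e1, 1575 CPM in #e6, annotated as the last part of the sinusoid, and 599 CPM in #e4. The clusters #e8 and #e5 were also the shallowest, with medians of 110837 and 153017 counts per cell against 303731 in #e3, 320683 in #e1 and 296860 in #e6, while #e4, at 164038, and #e7, at 177419, were shallow too. The part of depth in this order was not tested. The 14 cells of the peribiliary plexus, a part of #e2, were at 679 CPM. Clusters #e3, #e5, #e6, #e7 and #e8 together were above #e1, #e2 and #e4 by 0.75 ± 0.19 on the log2 scale, which was not called at adjusted p = 0.050 (edgeR, 16 sums). The central vein cluster #e7 had been placed on the sinusoidal side of this comparison. With #e7 on the other side, a choice made after the values were seen, it was 0.64 ± 0.18 (adjusted p = 0.063, edgeR). In the endothelial cluster comparison 0.759% of all genes were called higher and 1.16% lower.

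**Figure D3:**
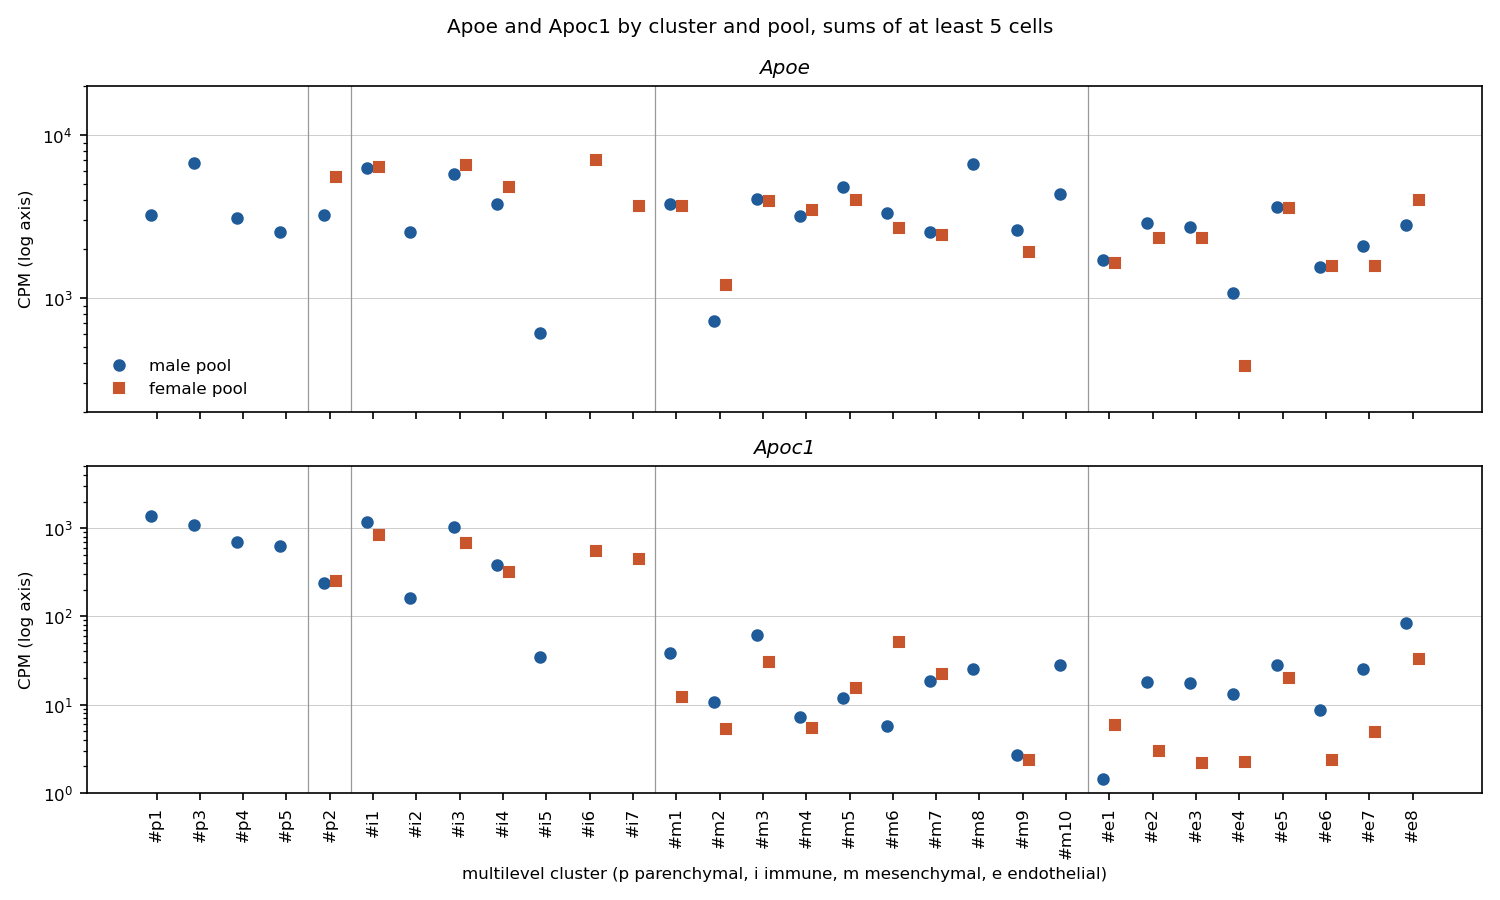
*Apoe* (upper panel) and *Apoc1* (lower panel) in the 30 clusters as CPM of summed counts (log axes), by pool. *Apoe* stays between 382.7 CPM (female #e4) and 7000 CPM (female #i6), while *Apoc1* is at 84.97 CPM or less in mesenchymal and endothelial clusters and above 300 CPM in those of hepatocytes and Kupffer cells.

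*Apoa1* behaved otherwise. It was at 1137 to 3860 CPM in the 4 hepatocyte clusters and at 5.79 CPM (#e6) to 180 CPM (#i3) in the other 26, none of which reached the lowest hepatocyte cluster. The Kupffer cell cluster #i3 had the highest level outside hepatocytes of *Apoa1* (180 CPM), *Apoa2* (86.7 CPM), *Apoa5* (92.3 CPM) and *Apoh* (66.1 CPM), and its *Alb*, at 1000 CPM, was the highest outside the parenchymal class. *Apom* was highest in #i4, at 11.49 CPM, with all 133 counts in the female pool, and was at 11.27 CPM in #i3. In #i3 the male pool, of 10 cells, was at 8.76 CPM for *Apoa1*, 0.73 CPM for *Apoa5* and 1.46 CPM for *Apoh*, so these values rest on the female pool. These clusters also had the largest sums of the 15 secreted protein genes outside parenchymal cells, 1824 CPM in #i3 and 968 CPM in #i4, against 171 to 689 CPM in the other 23 clusters outside it. *Apoc3*, *Apoa4* and *Apob* had their highest values elsewhere, in the B cells #i5 (49.75 CPM), in #m6 (42.0 CPM) and in #p2 (26.2 CPM). The value of *Apoa4* in #m6 rests on 366 counts in 25 female cells, with 0 counts in the male pool. That of *Apoc3* in #i5 rests on few cells, since the top 5% of the 58 cells held 97.7% of its counts and 3 cells had at least 20. Cluster #i4 held 24 and #i3 held 2 of the 26 cells that the authors marked with the annotation Cont. These 26 cells are the community cluster #i9c, which the study describes as Kupffer cells with endothelial RNA. Cluster #i4 holds 48 cells in all. Leaving these cells out changed no count of called members by over 1.5 times.

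The likeness of patterns was measured by Pearson's r of log2(CPM + 1) over the 30 clusters, among 16593 genes with at least 10 CPM in some cluster. Clusters share pools and plates, so r is a description. The 5 genes most like *Apoe* were *Mfsd3* (r = 0.698), *Ykt6* (0.686), *Snx15* (0.676), *Plxnb2* (0.675) and *Creg1* (0.662). The r of *Apoe* with *Apoc1* was 0.545 and with *Apoa1* 0.27. Those most like *Apoa1* were *Mup10* (0.964), *Serpina1a* (0.934), *Kng1* (0.928), *Serpina1b* (0.926) and *Mup14* (0.912), of which the *Mup* and *Serpina1* genes have near-identical copies that can share reads. *Apoa1* had an r of 0.847 to 0.948 with the other members apart from *Apoc1* (0.665) and *Apoe*. For *Apoc1*, added after the values were seen, they were *Pstpip2* (0.927), *Abcb4* (0.913), *Apoc2* (0.899), *Bco2* (0.896) and *Shtn1* (0.894). *Apoc2*, itself an apolipoprotein gene, is a near neighbour of *Apoc1* on chromosome 7.

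At the level of single cells, *Apoe* was counted in 203 of 203 hepatocytes, 194 of 194 cholangiocytes, 1104 of 1106 endothelial, 650 of 651 immune and 1337 of 1337 mesenchymal cells. Cells were then thinned to 50000 counts, to remove differences in depth, and 13 cells under that number were left out. After thinning, *Apoe* was still found in 98.3% or more of the cells of each group, B cells included. Median levels differed more: 5644 CPM per cell in Kupffer clusters, 3775 in cholangiocytes, 3713 in mesenchymal cells, 3029 in hepatocytes, 2636 in endothelial cells and 353.5 in the B cells of #i5. *Apoc1* was found, after thinning, in 100% of hepatocytes, 98.1% of Kupffer cells and 90.1% of cholangiocytes, but in 51.7% of B cells, 20.6% of mesenchymal and 18.8% of endothelial cells.

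For *Apoa1* the picture was reversed. It was found after thinning in 96.1% of hepatocytes and in 26.0% of cholangiocytes, 23.4% of endothelial, 31.6% of immune, 27.9% of mesenchymal cells and 37.9% of B cells. Without thinning, it was found in 39.0% of endothelial cells (95% exact binomial interval 36.1 to 41.9%; median depth 230826 counts) and in 75.9% of B cells (62.8 to 86.1%; 262467 counts). The B cells are 58 cells of the male pool, and at a limit of 20 counts per cell their share was 12.1%. Intervals cover counting error only. *Alb* was found after thinning in 53.5% of B cells, 55.0% of endothelial, 59.8% of mesenchymal and 67.3% of immune cells, and in 100% of cholangiocytes.

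The counts of a member were also spread over cells in unlike ways. The 5% of cells with the most counts held 8.15% of *Apoe* counts in cholangiocytes, 10.9% in endothelial, 8.19% in immune and 10.01% in mesenchymal cells, close to the 12.2% in hepatocytes. For *Apoa1* they held 78.9%, 74.4%, 66.8% and 62.4% in the 4 groups and 14.3% in hepatocytes. *Apoc1* was even in immune cells (14.8%) and cholangiocytes (19.9%) and uneven in endothelial (76.5%) and mesenchymal cells (68.1%). At a limit of 20 counts per cell, *Apoa1* was found in 9.77% to 13.7% of the cells of the 4 groups and in 93.1% of hepatocytes.

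**Figure D4:**
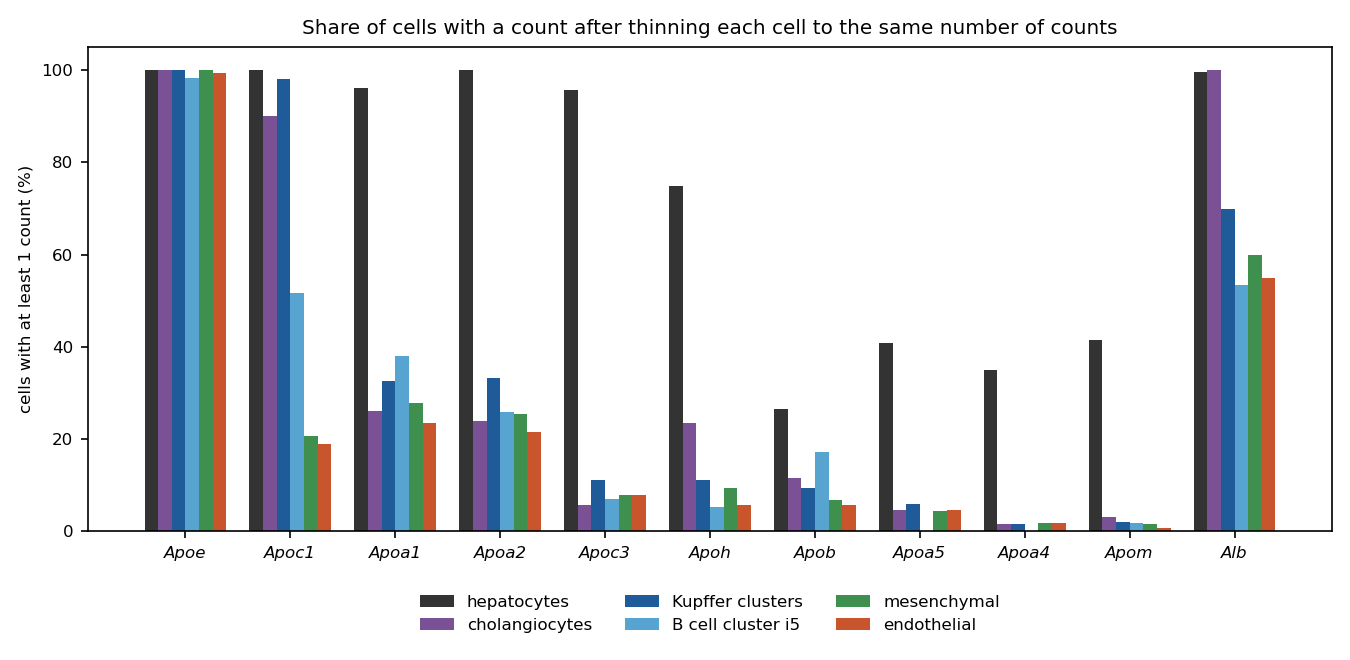
Percent of cells in which each apolipoprotein gene and *Alb* was counted, after cells were thinned to 50000 counts and 13 cells under that number left out, by cell group. *Apoe* is at 98.3% or more in each group, *Apoc1* separates Kupffer cells and cholangiocytes from mesenchymal and endothelial cells, and *Apoa1* is at 96.1% in hepatocytes and at 37.9% or less elsewhere.

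Within groups, the levels of single cells were compared with their RNA of secreted hepatocyte proteins. Pearson's r between the log levels of *Apoa1* and of the 15 secreted protein genes was 0.28 over 1106 endothelial, 0.32 over 651 immune and 0.33 over 1337 mesenchymal cells, and 0.08 over 194 cholangiocytes. For *Apoe* it was 0.15, 0.28, 0.04 and 0.43 in the same order. The enzyme genes gave another order for *Apoe*, with a Spearman's rho of 0.17, 0.09, 0.36 and −0.10 against 0.18, 0.27, 0.03 and 0.43 for the secreted protein genes. In mesenchymal cells the sum of the enzyme genes was mostly *Cyp2e1*, and a rho without that gene was not computed. For *Apoa1* these were 0.25, 0.22, 0.07 and 0.14 against 0.27, 0.24, 0.32 and 0.12. *Apoe* as a share of counts was lower in deeper cells, with a Spearman's rho with total counts of −0.82 in cholangiocytes, −0.68 in immune, −0.35 in endothelial and −0.38 in mesenchymal cells. These are descriptions over cells that share pools, plates and depth.

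Plates were then compared, since a plate with hepatocytes was processed together with them. On the plate with 155 hepatocytes, *Apoe* in endothelial cells was at 48.5% and in mesenchymal cells at 119% of the hepatocytes of the same plate, while *Alb* was at 1.98% and 2.84% and *Apoa1* at 0.631% and 2.42%. On a second plate, with 12 hepatocytes, *Apoe* was at 85.4% in endothelial, 112% in immune and 87.2% in mesenchymal cells, *Alb* at 3.52%, 1.83% and 1.99%, and *Apoc1* in immune cells at 33.6%. On the third, with 10 hepatocytes and 26 mesenchymal cells, *Apoe* was at 162% and *Alb* at 3.53%. The contrast between *Apoe* and *Alb* was thus present within each of the 3 plates. In cholangiocytes, *Alb* was at 73.8% and 81.7% of hepatocytes on the first and second plate, and *Apoe* at 131% and 127%. These rest on 29 cholangiocytes, 21 of them on the second plate.

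Cells on plates with at least 10 hepatocytes were also set beside those on plates with fewer, and the genes differed in direction. All groups of at least 10 cells on the former plates were male. Female groups of that size were all on plates with 0 or 1 hepatocytes, so this split and sex cannot be told apart. The former plates held 136 endothelial, 71 immune and 167 mesenchymal cells and 29 cholangiocytes, and the latter 970, 580, 1170 and 165. Of the 71 immune cells, 70 came from 1 plate. *Alb* was at 163 CPM on the former and 171 CPM on the latter in endothelial cells, at 94.5 and 305 CPM in immune, 153 and 206 CPM in mesenchymal cells and 4552 and 3464 CPM in cholangiocytes. The summed level of the 15 enzyme genes was at 197.7 and 118.3 CPM in endothelial and at 184.5 and 122.6 CPM in immune cells. It was at 813.9 and 517.3 CPM in mesenchymal cells, where *Cyp2e1* held 158329 of its 184659 counts. That of the 15 secreted protein genes was at 361.9 and 355.8 CPM in endothelial, 346.5 and 605.1 CPM in immune, 436 and 508.6 CPM in mesenchymal cells and 9950 and 7429 CPM in cholangiocytes. The parts of the plate and of sex in these levels were not tested. *Apoa1* was at 68.7 and 46.2 CPM in endothelial, 11.6 and 74.5 CPM in immune and 53.2 and 57.4 CPM in mesenchymal cells. Over plates with at least 10 cells of a group, *Apoe* varied 2.72-fold in endothelial, 3.20-fold in immune and 2.13-fold in mesenchymal cells, and *Apoa1* 19.02-fold, 35.9-fold and 4.795-fold.

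Among hepatocytes themselves, the clusters #p4 and #p5 stand for the ends of the lobule: #p4 was high in *Hal* and *Cyp2f2*, genes of periportal hepatocytes, and #p5 in *Glul* and *Cyp2e1*, genes of pericentral hepatocytes. The level in #p4 over that in #p5 was 23.4 for *Apoa4*, 7.44 for *Apob*, 4.19 for *Apom*, 3.07 for *Apoa5*, 2.47 for *Apoh*, 2.18 for *Apoc3* and 2.01 for *Apoa1*. It was 1.22 for *Apoe*, 1.11 for *Apoc1* and 1.06 for *Apoa2*, and 1.93 for *Alb*. All 10 ratios were thus above 1, with *Apoe*, *Apoc1* and *Apoa2* the most even. These are ratios within 1 male pool, with 94.9% of #p4 and 98.2% of #p5 from a single plate each, and have no replicate.

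The partners of the apolipoproteins were taken from lists of 12 receptor, 11 enzyme and transporter and 9 regulator genes and 5 other apolipoprotein genes, 37 in all. Against the other 3 groups outside hepatocytes, 14 were higher and 2 lower in immune cells, 9 higher and 9 lower in cholangiocytes, 6 higher and 5 lower in mesenchymal cells and 3 higher and 7 lower in endothelial cells. Of all genes 6.77% were called higher and 4.72% lower in immune cells, 6.7% and 3.84% in cholangiocytes, 8.43% and 1.65% in mesenchymal and 4.55% and 2.41% in endothelial cells. The median log2 fold change of the 37 was 0.13 in immune cells, −0.05 in cholangiocytes, 0.15 in mesenchymal and −1.05 in endothelial cells, and that of all genes 0.00, −0.48, 0.14 and 0.05. Against hepatocytes, 10 of the 37 were higher and 11 lower in immune cells, 3 and 8 in cholangiocytes, 5 and 11 in mesenchymal cells and 4 and 14 in endothelial cells. The shares of all genes called higher and lower were 4.9% and 5.99%, 3.63% and 3.3%, 5.54% and 4.35%, and 5.88% and 6.25% in the same order.

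In immune cells, the receptors *Apobr*, which binds apolipoprotein B, and *Lrp8* were higher by 6.26 ± 0.65 and 6.06 ± 1.4 on the log2 scale (adjusted p = 8.9e-04 and 0.028, edgeR), and *Vldlr* was lower. The lipolytic enzyme gene *Lpl* was higher by 4.26, the cholesterol exporter *Abcg1* by 4.07 and *Soat1*, which esterifies cholesterol, by 3.31. The sterol receptor *Nr1h3* (LXR alpha) was higher by 4.80. *Apoc2*, the activator of lipoprotein lipase, was higher by 3.41, the same direction as *Apoc1*, and *Clu* was lower by 3.70.

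Mesenchymal cells had *Vldlr* higher by 7.72 ± 0.56, *Apobr* by 4.01, *Lpl* by 3.30, *Pltp* by 2.31 and *Angptl4*, an inhibitor of lipoprotein lipase, by 5.06. *Cd36* and *Apoc2* were lower there. Endothelial cells had *Gpihbp1*, which anchors lipoprotein lipase on capillaries, higher by 5.06 ± 0.87 and *Abcg1* by 3.42. *Vldlr*, *Lrp1*, *Lpl*, *Nr1h3* and *Apoc2* were lower in them. Cholangiocytes had *Lsr* higher by 6.35 ± 0.61, *Vldlr* by 4.96, *Angptl8* by 3.57, and the apolipoprotein genes *Clu*, *Apof* and *Apoc2* by 5.0, 3.46 and 2.38. *Apobr*, *Abcg1*, *Pltp* and *Soat1* were lower in them. Of the 5 other apolipoprotein genes, 3 were lower than in hepatocytes in cholangiocytes and mesenchymal cells and 4 in endothelial and immune cells, *Apoc4* and *Apof* in each group, where 3.3%, 4.35%, 6.25% and 5.99% of all genes were called lower. One of the 5, *Clu*, was higher in cholangiocytes, by 2.58 ± 0.64, where 3.63% of all genes were called higher, and none was called higher in the other groups.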

How the data were processed

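Single mouse liver cells were sequenced by Smart-seq2, and the values deposited by the authors are raw counts of reads per gene and cell. Per the labels, the submitters' processing notes name bcl2fastq, Bowtie, Bowtie2, featureCounts (Subread) and Seurat, with the builds GRCm38 and mm10. Before deposit, the authors left out cells by limits on counts, genes, mitochondrial and ERCC reads, and cells that looked contaminated by another type. No doublet caller was run. The classes and clusters used are the deposited ones, and 0 count columns matched no sample.

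Counts of 46517 genes (92 ERCC spike-ins left out; 50042 to 1143895 counts per cell before that) were summed per group and pool. Sums of at least 5 cells (9 sums, 4 residual degrees of freedom) were fitted in R 4.3.3 by edgeR 4.0.16 (filterByExpr, TMM, quasi-likelihood test with the default dispersion). Benjamini-Hochberg adjustment ran over the whole table of a comparison, and calls needed an adjusted p under 0.05 with an absolute log2 fold change of 1 or more. The hepatocyte scale replaced library sizes by the summed counts of 30 hepatocyte genes. Values per cell used Python 3.11.15, numpy 2.4.6 and pandas 2.3.3, and intervals scipy 1.17.1. Lengths, positions and overlaps were taken from GENCODE vM21, and promoters from RefSeq.

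The members and lists were chosen with earlier results of these data known. The text names the members and *Alb* at each comparison, up to 3 called genes per list with the largest log2 fold changes, and the 5 genes most like *Apoe* and *Apoa1*. Some genes that this rule takes from the lists are not reported here. Alternatives were the size factors and the Wald test of DESeq2 1.42.0, no filter, cells thinned to 50000 counts, sums of at least 2 cells, sums per plate, a block for the sex of the pool, the omission of single pools, and other scales. Added after seeing the data were plate as a term, a scale without 2 genes, cells without the annotation Cont, the newer dispersion of edgeR and another place for #e7.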

Additional observations from a re-analysis of the deposited data

Results flagged for a closer look

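In 5 comparisons of a group with the mean of the other 3 groups outside hepatocytes, the male and the female pool lay on opposite sides by at least 1 on the log2 scale (with 0.5 CPM added to each level). *Apoa5* in cholangiocytes was at 1.23 in the male and −3.56 in the female pool. *Apom* in cholangiocytes was at 1.46 in the male and −1.79 in the female pool. *Apoa4* in endothelial cells was at 1.06 in the male and −3.44 in the female pool. *Apoa5* in immune cells was at −1.46 in the male and 1.47 in the female pool, and in mesenchymal cells at −1.11 and 1.16. Each of these rests on 1 pool per sex, and the difference between the sexes was not tested. *Apoa5*, *Apoa4* and *Apom* were counted in few cells outside hepatocytes, 1.36% to 14.96% of the cells of a group or of the Kupffer clusters.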

How the results depend on the processing

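The number of members lower in cholangiocytes than in hepatocytes, 6, became 3 with plate as a term, and the 7 lower in immune cells became 4 with sums of at least 2 cells. Leaving out 1 pool gave 3 to 8 members lower in cholangiocytes (3 without the female parenchymal pool), 6 to 9 in endothelial, 4 to 7 in immune and 5 to 9 in mesenchymal cells. The 2 members higher in cholangiocytes became 4 with no filter and 1 with sums of at least 2 cells or per plate, and were 0 to 3 with a pool left out. The 1 higher in immune cells became 2 in thinned cells and with no filter, and was 1 to 2 with a pool left out. On the hepatocyte scale, the 1 member above it in cholangiocytes became 2 with enzyme genes and 0 with secreted protein genes or *Alb* alone, and the 1 in endothelial cells became 3 with sums per plate. For the ratio of each member to hepatocytes beside that of Alb, 26.25% of pairs lay above, 81.25% with the median of the 30 genes in place of *Alb*, and 20% to 28.57% with a pool left out. *Apoe* in Kupffer clusters was at 2.30 in DESeq2 (adjusted p = 0.18). The cause of these changes was not tested.

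The sign of *Apoe*, in no case past the threshold, changed against hepatocytes with sums per plate (0.265 in immune, 0.088 in mesenchymal cells). Against the other groups it changed in cholangiocytes with sums per plate (−0.156) or plate as a term (−0.165), and ran from −0.084 (without parenchymal replicate 2) to 0.652 with a pool left out. In mesenchymal cells it was −0.057 with the size factors of DESeq2 or its Wald test, −0.118 in thinned cells and −0.018 with sums of at least 2 cells, and with a pool left out it ran from −0.307 (without mesenchymal replicate 1) to 0.344, with −0.064 and −0.097 without immune and parenchymal replicate 1.

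The labels do not pair the pools, and male minus female differences of 2 groups correlated at 0.061 to 0.091 over 27328 genes. With the sex of the pool as a replicate block, 6, 8, 6 and 7 members were lower than in hepatocytes in cholangiocytes, endothelial, immune and mesenchymal cells, 1, 1, 2 and 1 lay above the hepatocyte scale and 3, 0, 1 and 0 were higher than in the other groups. In the block fit *Apoe* was at 2.12 in Kupffer clusters, 0.30 in #m3 and 0.78 in sinusoidal clusters.

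The newer dispersion of edgeR gave 8, 10, 8 and 9 members lower than in hepatocytes in the same order, and 3 higher in cholangiocytes. Over all genes, among which were the members lower in cholangiocytes than in hepatocytes and the members lower in mesenchymal than in hepatocytes, edgeR called 901, 1708, 1637 and 1188 lower and DESeq2 2621, 3404, 3167 and 2784. Cluster tests without a pool of their class, and tests against hepatocytes without the male parenchymal pool, could not be fitted.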
